A study of Mus musculus with 8 samples.

Results

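Regenerating mouse liver was compared between 36 and 48 h after partial hepatectomy, on 4 of the 8 arrays of the study. The members were all named genes whose signal lay well above background on at least 2 of these 4 arrays, which gave 13528 genes of the 18316 with a probe. Of them, 12527 were well above background on all 4 arrays.

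The study measured total liver RNA on Agilent 1-colour arrays in 2 genotypes at 0, 24, 36 and 48 h after surgery, with 1 array for each genotype and time. Both genotypes were of strain 129/SV/B6. Every animal, the wild type included, had undergone irradiation with transplantation of bone marrow 2 months earlier, and had received poly(IC) 1 week earlier. Poly(IC) induces interferon, which switches on the Mxcre transgene, a Cre recombinase under the interferon-responsive Mx1 promoter; it acts in hepatocytes, blood cells and other cells that respond to interferon. The 36 h group held an Mxcre- liver, which served as wild type for Survivin, and an Mxcre+ liver, in which Survivin (gene symbol Birc5) was to be deleted. The 48 h group held 1 liver of each of the same genotypes. The labels allow either sex for every sample, do not state whether an array held 1 animal or a pool, and in one protocol note place the analysis at another time; the times of the titles were used. With a single array in each group, the spread between livers of one group is unknown, and the SEs below are limma's, which draw the distance between the 2 genotypes' differences towards a value shared by all genes. The adjusted p-values named as those of the 8-array fit also use the 0 and 24 h arrays. The arrays compared share a slide. They are 12 h apart, so hours since surgery and time of day cannot be told apart, nor can 2 livers that differ for any other reason.

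After partial hepatectomy the remaining hepatocytes leave quiescence and enter the cell cycle almost together. They license their replication origins, copy their DNA in S phase, and then pass through G2 into mitosis, where cyclin B with Cdk1, the Polo and Aurora kinases, the kinetochores and the spindle divide the chromosomes. Genes of S phase are transcribed early, largely by E2F factors. Genes of G2 and mitosis are transcribed later, through the MuvB complex, which is joined by B-Myb and then by Foxm1 and acts at a promoter element called the cell cycle genes homology region (CHR), often together with NF-Y bound at CCAAT boxes.

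A level here is the log2 processed signal of a gene's brightest probe minus the 75th percentile of its array, so 0 is that percentile. A difference is the level at 48 h minus that at 36 h. Levels of different genes come from different probes and are not compared.

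Many mitosis genes were higher at 48 h than at 36 h. At least 2-fold differences in both genotypes were found for 166 genes that were higher at 48 h, 1.23% of those tested, and for 41 that were lower, 0.303%. With normexp background correction of the median signal the counts were 50 and 7, and the differences of the named genes had a median of 0.518 of the size printed here. Of the 168 tested members of 7 lists of mitosis genes, 74 were at least 2-fold higher in both genotypes and none was 2-fold lower. They made up 44.6% of all genes that were 2-fold higher, and 89 of the 166 were in no list. Of the 67 tested members of 3 lists of S phase genes, none was 2-fold higher and 1, Cdc6, was 2-fold lower. The median difference of the mitosis lists was 1.03 in Mxcre- and 0.96 in Mxcre+, that of the S phase lists was -0.15 and -0.14, and that of all genes tested was -0.02 and -0.01.

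**Figure D1:**
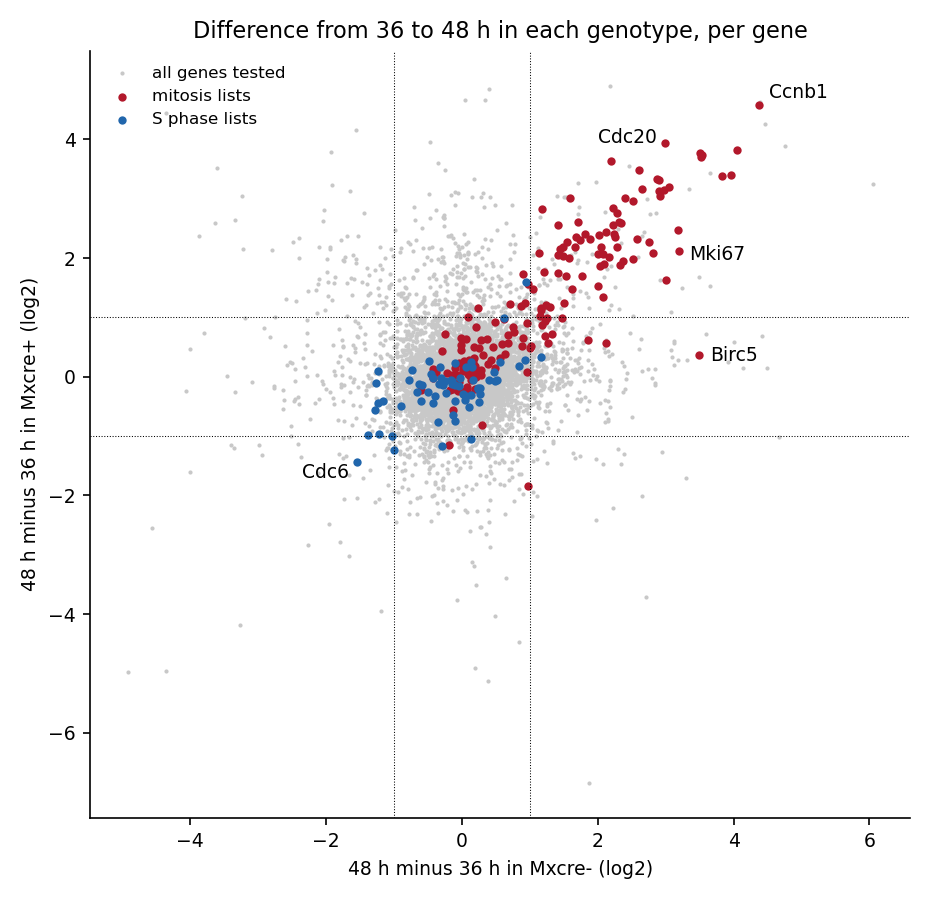
Difference from 36 to 48 h (log2) in Mxcre- livers on the horizontal axis and in Mxcre+ livers on the vertical axis, one point per gene (grey, all 13528 genes tested; red, mitosis lists; blue, S phase lists), with dotted lines at 2-fold. The red points fill the upper right corner up to Ccnb1 at 4.37 and 4.58, the blue points lie near 0, and Birc5 lies apart from the other red points, at 3.50 in Mxcre- and 0.37 in Mxcre+.

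With genotype as a block and 1 residual degree of freedom, the limma fit on the 4 arrays called no gene (0%) at the threshold of 0.05 after Benjamini-Hochberg adjustment. The smallest adjusted p was 0.2025, and 1178 genes had an unadjusted p under 0.05, 667 of them higher and 511 lower at 48 h. The fit on all 8 arrays gave the same differences with 3 residual degrees of freedom, and called 20 genes that rose (0.148%) and none that fell. Its calls are the only ones described below as a rise. They were lost when an array was left out: 4 genes were called without the Mxcre- 36 h array, of which Raet1e was among the 20, and none was called without any one of the other 3 arrays. Everything else is described by size, and without regard to size 27.8% of all genes tested were higher in both genotypes and 32.4% were lower in both.

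Of the 20 called genes 16 belong to the mitosis lists, and each was more than 2-fold higher in both genotypes. They were Ccna2, Ccnb2, Cdc25b and Plk1 of mitotic entry, Cenpa, Cenpf and Ska1 of the kinetochore, Ckap2, Depdc1a, Hmmr and Kif22 of the spindle, Cdca3, Kif4, Kif23 and Sapcd2 of the list for central spindle and cytokinesis, and Pttg1, securin. The other 4 were Ddit4l, G2e3, Raet1e and Trim59. Adjusted p in the 8-array limma fit ran from 0.01034 for Cenpf and Raet1e to 0.04918 for G2e3 and Cdc25b. Raet1e and Depdc1a were not well above background on either 36 h array and passed the filter through the 48 h arrays alone, so their calls are no independent support. Depdc1a was at least 7.46-fold higher at 48 h.

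The promoters of 5 of these genes are shown because genes with CHR and CCAAT elements are known for transcription in G2 and mitosis, and those of Cdc6 and Dbf4 because they had the largest differences among the licensing genes. Each stretch of 170 bases is the RefSeq sequence (GRCm38.p6) from 120 bases before to 50 after the gene's start, on the gene's strand. Capitals mark CCAAT or its reverse complement ATTGG, and the CHR letters TTTGAA or TTCGAA or their reverse complements TTCAAA and TTCGAA. E2F letters (TTTGGCGC, TTTCCCGC or TTTCGCGC, either strand) were searched too, and none of them falls in these 7 stretches.
Ccnb2, chr9:70421505-70421674, minus strand: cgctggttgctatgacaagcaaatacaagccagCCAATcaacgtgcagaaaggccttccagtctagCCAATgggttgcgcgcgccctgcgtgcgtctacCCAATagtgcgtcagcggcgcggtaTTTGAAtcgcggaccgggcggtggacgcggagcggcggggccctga
Plk1, chr7:122159315-122159484, plus strand: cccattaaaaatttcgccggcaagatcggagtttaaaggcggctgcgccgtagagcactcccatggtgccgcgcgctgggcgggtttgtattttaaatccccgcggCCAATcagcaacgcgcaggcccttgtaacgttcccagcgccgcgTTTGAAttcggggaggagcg
Cenpf, chr1:189688037-189688206, minus strand: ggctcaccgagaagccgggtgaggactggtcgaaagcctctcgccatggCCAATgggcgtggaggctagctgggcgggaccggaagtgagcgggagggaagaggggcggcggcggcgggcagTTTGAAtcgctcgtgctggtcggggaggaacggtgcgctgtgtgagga
Depdc1a, chr3:159495313-159495482, plus strand: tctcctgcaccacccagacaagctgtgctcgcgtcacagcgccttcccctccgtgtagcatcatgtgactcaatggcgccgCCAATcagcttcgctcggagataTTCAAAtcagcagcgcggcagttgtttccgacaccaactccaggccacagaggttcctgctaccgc
Hmmr, chr11:40733388-40733557, minus strand: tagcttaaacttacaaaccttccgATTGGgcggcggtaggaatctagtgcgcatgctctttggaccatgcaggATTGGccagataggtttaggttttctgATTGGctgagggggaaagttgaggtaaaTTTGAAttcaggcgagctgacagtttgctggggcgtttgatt
Cdc6, chr11:98908031-98908200, plus strand: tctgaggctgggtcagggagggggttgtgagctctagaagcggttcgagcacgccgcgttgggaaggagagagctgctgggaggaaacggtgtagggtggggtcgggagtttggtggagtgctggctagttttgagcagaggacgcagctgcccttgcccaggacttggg
Dbf4, chr5:8422667-8422836, minus strand: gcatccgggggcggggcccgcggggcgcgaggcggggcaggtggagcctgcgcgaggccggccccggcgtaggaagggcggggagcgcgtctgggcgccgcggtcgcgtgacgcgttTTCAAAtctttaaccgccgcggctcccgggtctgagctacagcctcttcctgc

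The 5 mitotic promoters shown hold both CCAAT and CHR letters. Of the 18 called genes with a promoter in the table, 13 hold both in the full window and 5 do not. In Ccnb2, CCAAT begins at positions -87, -54 and -21 from the start site and the CHR letters at position 5. Dbf4 holds CHR letters and no CCAAT, and Cdc6 holds neither in this stretch, though E2F letters begin at position -138.

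Over the full 300 bases of each RefSeq promoter, CHR letters were found in 72.6% of the 62 mitosis genes that were at least 2-fold higher and have a promoter in the table. The share was 38.5% among the 78 mitosis genes that were not 2-fold higher, 24.1% of the 58 S phase genes, 17.1% of the 10802 genes tested and 21.7% of all 27025 promoters. For CCAAT the 5 shares, in the same sequence of sets, were 74.2%, 52.6%, 56.9%, 42.2% and 41.1%. For E2F letters they were 8.06%, 11.5%, 31.0%, 3.76% and 2.12%. The 2-fold higher mitosis genes therefore held CHR letters more often than the other mitosis genes, and the S phase genes held E2F letters most often. Such matches describe letters in a window and were not tested.

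Mitotic entry is driven by cyclin B and Cdk1. Cyclin B1, Ccnb1, stood at -3.69 in Mxcre- and -3.20 in Mxcre+ at 36 h, and at 0.69 and 1.39 at 48 h. This was the largest difference of any mitosis gene, 4.48 ± 0.14 (SE, n = 2 pairs), with an adjusted p of 0.1757 in the 8-array limma fit. Cyclin B2, Ccnb2, rose from -0.10 and 0.21 to 3.95 and 4.03, and cyclin A2, Ccna2, rose from 0.11 and -0.22 to 2.68 and 2.10. For each of the 3 cyclins both 48 h arrays lay above both 36 h arrays, and the genotypes differed far less than the times. Their partner kinase Cdk1 was at -0.93 and -1.56 at 36 h and at 0.89 and 0.83 at 48 h.

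Cdc25 phosphatases remove the inhibitory phosphates from Cdk1. Cdc25b rose by 2.76 in Mxcre- and 2.27 in Mxcre+, while Cdc25c was not well above background at 36 h in either genotype and was at least 3.58-fold higher at 48 h. Wee1, the kinase that adds those phosphates, differed by -0.43 and 0.01. The kinases of entry were among the largest differences. Polo-like kinase 1, Plk1, rose from 0.20 and -0.30 to 3.74 and 3.44, and Aurora A, Aurka, was higher by 2.53 and 2.96. Mastl, the Greatwall kinase that restrains the phosphatase opposing Cdk1, was higher by 1.14 and 2.08, while its substrates Arpp19 and Ensa differed by -0.03 and 0.23 and by 0.19 and 0.51. Foxm1, the transcription factor of the late genes, was higher by 2.08 and 2.06. Mybl2, which encodes B-Myb, differed by 0.07 and 0.63 and the MuvB subunit Lin54 by 0.29 and 0.03. In the entry list 21 of 24 tested genes were higher in both genotypes and 13 of them at least 2-fold.

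The chromosomal passenger complex is where Survivin acts, with Aurora B, Incenp and Borealin. Birc5 was at -0.25, -0.55, 1.53 and 5.03 on the Mxcre- arrays at 0, 24, 36 and 48 h, and at -2.80, -3.49, -1.58 and -1.20 on the Mxcre+ arrays. It was lower on the Mxcre+ array at every time, and where its probe lies relative to the deleted part is not known here. From 36 to 48 h it was higher by 3.50 in Mxcre- and by 0.37 in Mxcre+. The interaction of limma for this gene, -3.12 (Mxcre+ minus Mxcre-), had an adjusted p of 1, with an unadjusted p of 0.08328. The other 3 members were more than 2-fold higher in both genotypes: Aurkb by 2.52 and 1.99, Cdca8, Borealin, by 1.67 and 2.18, and Incenp by 1.62 and 1.49. Birc5 was thus the member of the complex whose difference was under 2-fold in Mxcre+.

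Kinetochores hold chromosomes to the spindle. Cenpf rose from -2.27 and -2.53 to 1.25 and 1.17. The kinetochore motor Cenpe was at -0.29 and -1.01 at 36 h and at 2.62 and 2.12 at 48 h. Bub1b and Knl1, of the spindle checkpoint, were higher by 2.31 and 2.61 and by 2.17 and 2.02, and shugoshin, Sgo1, which protects centromere cohesion, by 2.26 and 2.36. Cenpa, the histone H3 variant of centromeres, rose by 2.03 and 2.40. Not all checkpoint genes differed as much: Bub3 was higher by 0.46 and 0.50 and Mad1l1 by 0.12 and 0.03. Among 12 genes of the constitutive centromere-associated network, whose proteins stay on the chromosome through the cell cycle, the medians were 0.44 and 0.67. Of these genes 2 were at least 2-fold higher in both genotypes. In the whole kinetochore list 34 of 44 genes were higher in both and 16 at least 2-fold. Spdl1 lay apart from the list, with 0.98 in Mxcre- and -1.84 in Mxcre+, and its probes disagreed in sign.

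The spindle list holds motors, microtubule-binding proteins and tubulins, which are grouped here after their values were seen. A set of 11 mitotic kinesins was drawn from this list and others, with Kif4, Kif20a and Kif23 from the list for central spindle and cytokinesis. Of the 11, 10 were at least 2-fold higher in both genotypes, and the mean differences ran from 0.77 for Kif15 to 3.64 for Kif20a. Kif15, Kif18a, Kif18b and Kif23 were well above background on 1 of the 2 arrays at 36 h. Kif3a, a kinesin of the spindle list outside this set, had probes of opposite sign, at -0.10 and 0.19. Kif22, a chromosome arm motor, rose from 1.51 and 1.03 to 3.80 and 3.22, and Kif4 from -1.07 and -2.06 to 0.82 and 0.27. Hmmr rose by 2.91 and 3.32 and Ckap2 by 2.65 and 3.16; both bind spindle microtubules. Nusap1 was higher by 3.96 and 3.40, and Tpx2, which activates Aurora A on the spindle, by 2.28 and 2.75. Fam83d, which recruits casein kinase to the spindle, was at -4.08 and -4.72 at 36 h, well above background on the Mxcre- array alone, and at -1.03 and -1.53 at 48 h. The 4 tubulins had mean differences between 0.13 and 0.33, and Numa1 differed by 0.01 and 0.10. In the spindle list 20 of 33 genes were at least 2-fold higher in both genotypes.

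Anaphase is triggered when the anaphase-promoting complex marks securin and cyclin B for destruction. Its activator Cdc20 was at 1.42 and 0.62 at 36 h and at 4.41 and 4.57 at 48 h. Its ubiquitin-conjugating enzyme Ube2c was higher by 2.62 and 3.49, its substrate securin, Pttg1, rose by 2.38 and 1.95, and separase, Espl1, was higher by 2.01 and 2.06. The 11 subunits of the complex itself had mean differences between -0.17 for Cdc26 and 0.36 for Cdc23. The genes of the complex itself thus lay near 0, while Cdc20, Ube2c, Pttg1 and Espl1 were at least 2-fold higher or rose. These were the only 4 of the list's 19 tested genes that were at least 2-fold higher in both genotypes. The rest, Fzr1 and Ube2s among them, were not.

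Cytokinesis follows from the central spindle. Kif20a was higher by 3.51 and 3.77, and reached 2.51 and 2.43 at 48 h. Kif23 rose from -4.54 and -4.31 to -1.61 and -1.27, and was well above background on 1 of the 2 arrays at 36 h. Its partner in the centralspindlin complex, Racgap1, was higher by 1.75 and 2.30, the nucleotide exchange factor Ect2 by 1.72 and 2.61, and Anln, the anillin of the contractile ring, by 2.81 and 2.09. Cdca3, which was counted in the same list, rose by 2.98 and 3.15. All of these were higher by more than 2-fold in Mxcre+ as well. Rhoa, Rock1, Rock2, 2 septins and 3 ESCRT genes, which also serve cells that do not divide, had mean differences between -0.25 and 0.37. Citron kinase, Cit, differed by -0.18 and -1.15.

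Chromosome structure genes split in part by complex. Topoisomerase II alpha, Top2a, was higher by 2.01 and 1.53, and reached 1.01 and -0.20 at 48 h. Mki67, the proliferation marker Ki-67 that coats mitotic chromosomes, was at 1.22 and 1.20 at 36 h and at 4.42 and 3.31 at 48 h. Condensin had medians of 1.16 and 1.03 over 7 subunits, with Ncapg highest at 1.49 and 2.03, while Ncapg2 and Ncapd3, both of condensin II, differed by -0.12 and -0.56 and by -0.18 and -0.22. A set of 8 genes of the cohesin ring and its regulators had medians of -0.02 and 0.11, from -0.15 for Pds5b to 0.57 for Rad21. Cdca5, a cohesin regulator of the same list outside this set, was higher by 1.29 and 1.17. Cohesin is loaded long before mitosis and is needed in cells that do not divide.

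**Figure D2:**
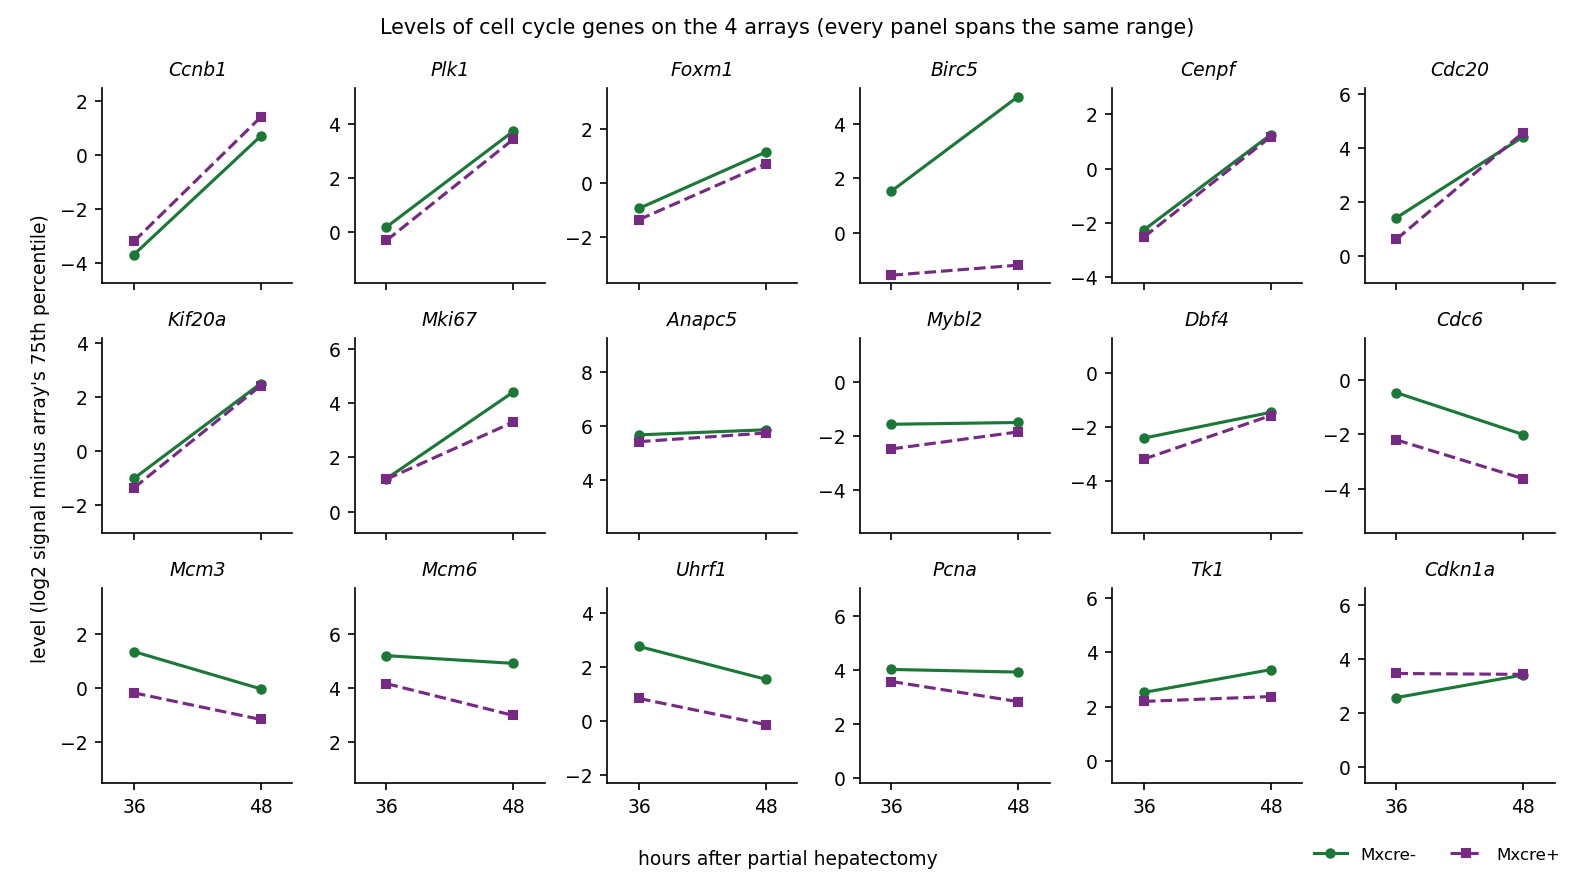
Level (log2 signal minus the array's 75th percentile) at 36 and 48 h for 18 cell cycle genes, 1 array per point (circles and solid lines, Mxcre-; squares and dashed lines, Mxcre+); every panel spans the same range. Ccnb1, Plk1, Cenpf and Kif20a slope steeply upward in both genotypes, Birc5 in Mxcre- only by more than 2-fold, Anapc5 and Mybl2 stay nearly level, and Cdc6, Mcm3 and Uhrf1 slope downward.

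Of all 168 mitosis genes, 137 were higher in both genotypes, 9 lower in both and 22 of opposite sign. Members below the 2-fold threshold were thus mostly on the same side as the rest.

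Genes of S phase had median differences near 0, and the licensing genes were mostly lower at 48 h. The licensing factor Cdc6, which loads the Mcm helicase onto origins, was at -0.46 and -2.20 at 36 h and lower by 1.55 and 1.43 at 48 h, a difference of -1.49 ± 0.13 (SE, n = 2 pairs) with an adjusted p of 0.5434 in the 8-array limma fit. Its partner Cdt1 was lower by 1.27 in Mxcre- and by 0.55 in Mxcre+. All 5 Mcm helicase subunits tested were lower in both genotypes, from -1.18 for Mcm3 to -0.16 for Mcm7 in mean difference, with Mcm2 at 2.18 and 0.70 at 36 h and at 1.03 and 0.28 at 48 h. Mcm10 was lower by 0.99 and 1.23. The 4 GINS subunits, which complete the active helicase, had mean differences between -0.11 and 0.28. In the licensing list 14 of 21 genes were lower in both genotypes and 4 were higher, all differences but that of Cdc6 being under 2-fold in at least 1 genotype. Dbf4, the activator of the Cdc7 kinase that fires origins, stood on the other side, at -2.40 and -3.18 at 36 h and at -1.45 and -1.57 at 48 h.

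At the fork the differences were small. Pcna, the sliding clamp, was at 4.02 and 3.57 at 36 h and at 3.92 and 2.83 at 48 h. Uhrf1, which carries DNA methylation across replication, was at 2.75 and 0.83 and then at 1.54 and -0.14. Ung, which removes uracil from DNA, was lower by 1.02 and 0.99. Of 31 fork genes 15 were lower in both genotypes, 3 higher in both and 13 of opposite sign. Of 15 genes of nucleotide supply 7 were lower in both genotypes and 3 higher, with medians of -0.04 and -0.15. Among the higher ones were thymidylate synthase, Tyms, by 1.16 and 0.34, and thymidine kinase, Tk1, by 0.84 and 0.18. The 16 G1/S regulators tested had medians of 0.08 and -0.08, with 3 higher in both genotypes, 4 lower in both and 9 of opposite sign. Their largest differences were those of Ccne1 and Ccne2, the E-type cyclins, lower by 0.22 and 1.08 and by 0.21 and 1.44.

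At the earlier times both sets were lower. Relative to 36 h, the median of the mitosis genes was -1.70 at 0 h and -1.38 at 24 h in Mxcre-, and -1.21 and -1.17 in Mxcre+. The median of the S phase genes was -1.91 and -1.75 in Mxcre-, and -1.37 and -0.98 in Mxcre+. S phase genes thus had most of their difference between 24 and 36 h, while the mitosis genes had a further difference of about the same order between 36 and 48 h. The 0 and 24 h arrays are on another slide, so the step from 24 to 36 h cannot be told apart from the slide, which the step from 36 to 48 h does not cross.

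**Figure D3:**
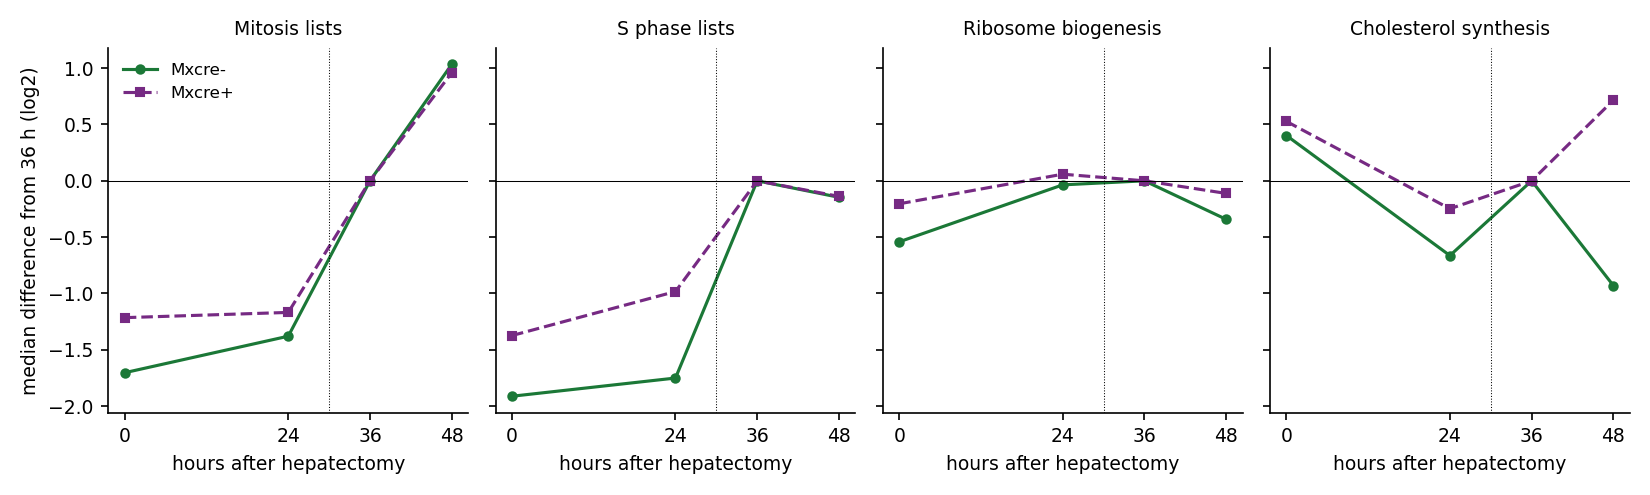
Median difference from 36 h (log2) over the genes of 4 sets at 0, 24, 36 and 48 h (circles and solid lines, Mxcre-; squares and dashed lines, Mxcre+), with 1 array per genotype and time and a dotted line between the arrays of the first and second slide. The mitosis median ends at 1.03 and 0.96, the S phase median at -0.15 and -0.14, and the cholesterol synthesis median at -0.93 in Mxcre- and 0.72 in Mxcre+.

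Inhibitors of the cell cycle were mixed. Cdkn2c and Cdkn2d, which block Cdk4 and Cdk6, were higher by 1.46 and 1.16 and by 2.31 and 1.13. Cdkn1a, the p53 target p21, was at 2.56 and 3.45 at 36 h and at 3.40 and 3.42 at 48 h, so it was higher by 0.83 in Mxcre- alone. Phlda3, another p53 target, was higher by 2.04 and 0.89. Of 27 such genes 14 were higher in both genotypes and 2 lower.

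Of the 2-fold higher genes in no list, several are named here after their values were seen. Cdkn3, a phosphatase that acts on cyclin-dependent kinases, was at -3.40 and -2.70 at 36 h and at 1.05 and 1.56 at 48 h. Knstrn, a spindle adaptor, was higher by 2.46 and 3.55, Iqgap3 by 2.76 and 2.75 and the kinase Pbk by 2.20 and 1.86. The linker histone H1f5 was higher by 3.49 and 1.67 and the histone variant H2ax by 1.87 and 1.16. Raet1e, a ligand of the activating receptor NKG2D of natural killer cells, was not well above background at 36 h and was at -1.07 and 0.01 at 48 h. It rose by at least 17.98-fold. Trim59 rose from -4.04 and -3.87 to -1.18 and -1.12. Of the 166 genes, 18 were not well above background on either 36 h array. Nipal4 and Usp17lc were among these, at least 2.62-fold and 5.32-fold higher. The transcript 9530077C05Rik, well above background on 1 of the 2 arrays at 36 h, was at -4.84 and -3.85 at 36 h and at -0.09 and 0.03 at 48 h.

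Of the 41 genes that were at least 2-fold lower in both genotypes, 32 were in no list. Derl3, a factor that draws misfolded proteins out of the endoplasmic reticulum, was at 3.12 and 4.03 at 36 h and at -0.14 in both genotypes at 48 h, a difference of -3.72 ± 0.30 (SE, n = 2 pairs) with an adjusted p of 0.1136 in the 8-array limma fit. In the list for the unfolded protein response 15 of 21 genes were lower in both genotypes and 1 was higher, with Sdf2l1 lower by 0.37 and 1.62 and Dnajc3 by 0.62 and 0.85. Thrsp, which promotes lipid synthesis, was at 2.61 and 3.29 at 36 h and at 0.35 and 0.45 at 48 h. For these 4 genes both 48 h arrays lay below both 36 h arrays. Samt1 and Hao2 were not well above background at 48 h in either genotype and were at least 10.4-fold and 13.1-fold lower than at 36 h.

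Of the genes of bile acid synthesis and transport, 2 were at least 2-fold lower in both genotypes. Cyp7a1, whose product sets the rate at which bile acids are made, was at -1.26 and 0.16 at 36 h and at -2.99 and -1.90 at 48 h. Slc10a1, the transporter that takes up bile acids from blood, was at 3.07 and 3.57 at 36 h and at 2.05 and 2.49 at 48 h. Cyp8b1, which makes cholic acid, was at -2.46 and 1.98 at 36 h and at -2.26 and -2.93 at 48 h, so the Mxcre+ 36 h array alone was high. The list as a whole had 8 of 24 members lower in both genotypes and 3 higher. The share lower in both was near the 32.4% of all genes tested.

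Wider hepatocyte functions were lower by small amounts. Of 36 genes for P450 enzymes and conjugation 22 were lower in both genotypes and 3 higher, with medians of -0.62 and -0.31. Cyp2c37 was at 3.87 and 4.24 at 36 h and at 1.46 and 3.11 at 48 h, and Cyp2b10 was lower by 0.65 and 2.31. Of 32 genes of the urea cycle and amino acid catabolism 23 were lower in both and 2 higher, Oat by 0.79 and 0.80 and Mat1a by 0.65 and 0.92 among the lower ones. Fatty acid oxidation had 20 of 33 lower in both and 2 higher. In ribosome biogenesis 28 of 29 genes were lower in both genotypes and none was higher, with medians of -0.34 and -0.11, Gnl3, nucleostemin, lower by 0.90 and 0.57. These shares stand against the 32.4% of all genes that were lower in both, and none of these genes was called.

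Of 23 genes of the clock and its output 17 were lower at 48 h in both genotypes, 2 higher and 4 of opposite sign, with medians of -0.66 and -0.46. Bmal1 (Arntl on the array) and Clock form the activator of the clock, and the Per, Cry and Rev-erb (Nr1d1, Nr1d2) genes and Dbp are its targets. A subset of 11 repressors and PAR bZIP output factors, chosen after the values were seen, had medians of -0.96 and -0.51. Ciart was at -1.45 and -2.46 at 36 h and at -4.80 and -3.67 at 48 h, Per2 was lower by 0.92 and 0.99 and Dbp by 0.96 and 0.50. Noct, a clock output, was lower by 1.73 and 0.75. Arntl was at -1.71 and -0.68 at 36 h and at -0.20 and 0.19 at 48 h. The part of the clock in the other differences was not tested.

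**Figure D4:**
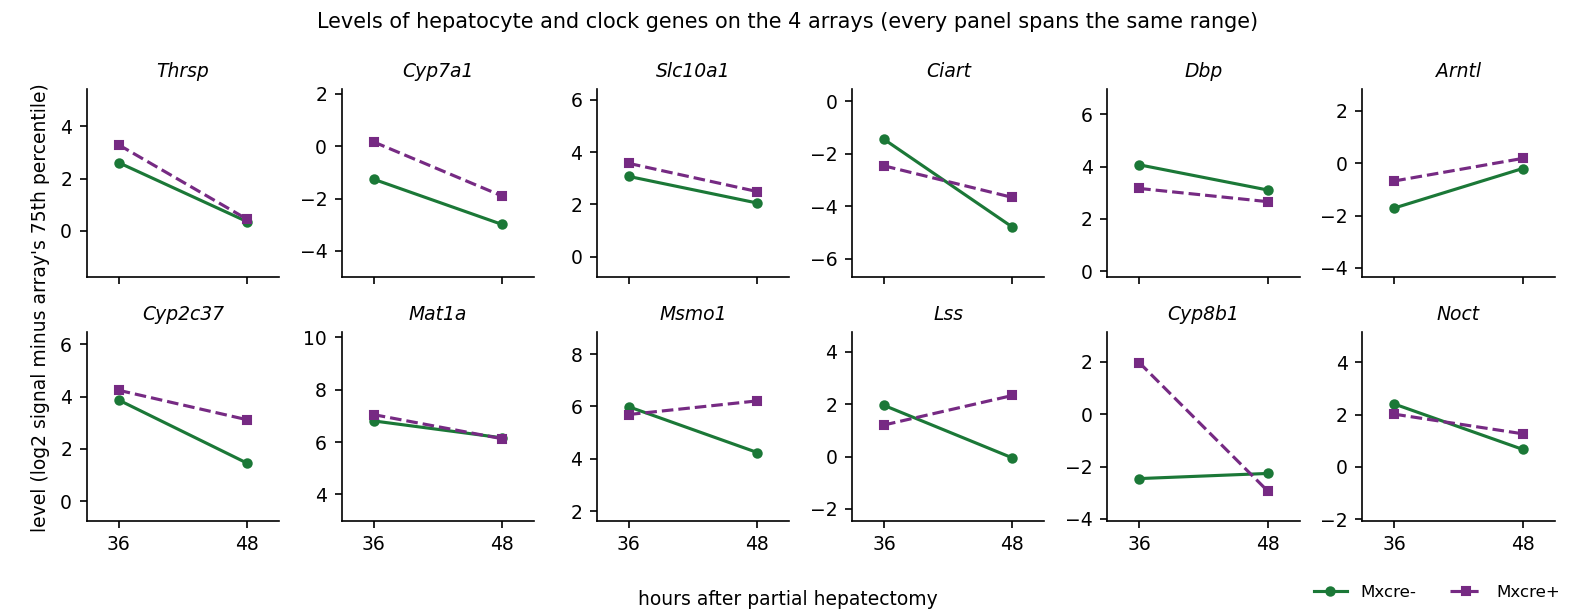
Level (log2 signal minus the array's 75th percentile) at 36 and 48 h for 12 hepatocyte and clock genes, 1 array per point (circles and solid lines, Mxcre-; squares and dashed lines, Mxcre+); every panel spans the same range. Thrsp, Cyp7a1, Slc10a1 and Mat1a slope downward in both genotypes, Arntl upward, Msmo1 and Lss cross, and Cyp8b1 is high on the Mxcre+ 36 h array alone.

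The genotypes went opposite ways in cholesterol synthesis. Of 25 genes 21 had opposite signs, with medians of -0.93 in Mxcre- and 0.72 in Mxcre+. Over all genes tested, 5388 of 13528 had opposite signs. Cholesterol synthesis was not alone in this. In the acute phase list 23 of 30 genes had opposite signs, with medians of 0.22 in Mxcre- and -0.42 in Mxcre+. Msmo1, a sterol methyl oxidase, was at 5.99 in Mxcre- at 36 h and 4.24 at 48 h, and at 5.69 and then 6.21 in Mxcre+. Lanosterol synthase, Lss, was lower by 2.01 in Mxcre- and higher by 1.13 in Mxcre+, and Fdft1 lower by 1.80 and higher by 0.36. The limma interaction fit on all 8 arrays called no gene (0%), with a smallest adjusted p of 0.3521 and 653 genes at an unadjusted p under 0.05, so no difference between the genotypes in any gene passed the test.

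Cells other than hepatocytes contribute to total liver RNA, and fewer cells of a type and less RNA per cell cannot be told apart. Hepatocyte identity genes were well above background on every array but 1 of 17 on the Mxcre+ 36 h array, with a summed level, as a multiple of the 75th percentile, between 1776 and 1984. Neutrophil markers summed to 106 and 231 at 36 h and to 147 and 161 at 48 h, with 15 or 16 of 16 above background. Such sums weigh the brightest probes most, and the median difference per marker was -0.06 in Mxcre- and 0.33 in Mxcre+. Of the 16 markers, 8 were higher at 48 h in Mxcre- and 14 in Mxcre+, although the Mxcre+ sum was lower. Prtn3, made by neutrophil precursors, was at -2.39 and -1.03 at 36 h and at -0.05 and 1.21 at 48 h, while Mpo of the same cells differed by -0.13 and 1.08. Macrophage markers summed to 48.5 and 75.2 at 36 h and to 71.6 and 83.8 at 48 h, with 19 or 20 of 20 above background. Of these 20, 19 were higher at 48 h in Mxcre- and 8 in Mxcre+, with median differences of 0.59 and -0.05. Endothelial markers summed to between 47.7 and 53.4 on all 4 arrays, with all 16 above background. T and NK cell markers summed to between 6.30 and 8.20, with 8 to 12 of 17 above background. Erythroid markers summed to 246 and 176 at 36 h and to 186 and 135 at 48 h, with Epb42, Rhag and Ermap among those above background on none. Duct and progenitor markers summed to 22.2 in Mxcre- and 14.7 in Mxcre+ at 36 h and to 42.6 and 15.3 at 48 h, with 8 or 9 of 12 above background and Cftr and Cldn4 among those on none. Of the 9 tested, 4 were higher at 48 h in Mxcre- and 7 in Mxcre+, with median differences of -0.04 and 0.44. The larger sum in Mxcre- was thus not shared by most of its markers. Stellate cell and matrix markers summed to 98.4 and 129 at 36 h and to 122 and 108 at 48 h, with all 16 above background. B and plasma cell markers summed to between 0.853 and 1.40, and Pax5, Blk and Fcrla were above background on none. How far these cells account for the differences was not tested.

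Sex markers differed between the arrays. Uty, Kdm5d, Eif2s3y and Ddx3y, the 4 Y-linked genes, were above background on both Mxcre- arrays and on neither Mxcre+ array, and summed to 2.95 at 36 h and 5.82 at 48 h in Mxcre-. Xist was at 4.37 and 5.18 at 36 h and at 2.32 and 5.10 at 48 h. Female-biased liver genes had medians of -1.42 in Mxcre- and -0.29 in Mxcre+, with 11 of 18 lower in both, Hao2 and A1bg by more than 2-fold. On these 4 arrays Y-linked signal followed genotype, so genotype and the presence of Y-bearing cells cannot be told apart. Within Mxcre-, Xist was lower by 2.05 at 48 h, while the median of the Y-linked genes was higher by 0.73. The labels do not give the sex of the marrow donors, and the part of sex in the differences was not tested.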

How the data were processed

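Total liver RNA was labelled with 1 dye and hybridised to Agilent arrays of 43379 gene spots. The deposited scanner files hold fluorescence intensity; per the file headers, Feature Extraction 10.7.3.1 (10.7 per the submitters' processing notes) had subtracted background and detrended the processed signal. The deposited matrix holds log2 values that the authors had normalised so that every column had the median 5.51; it was used as an alternative. Between 60.2% and 66.0% of spots were well above background on these 4 arrays and none was saturated; the number of arrays limits the precision.

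Spots flagged as outliers were left out, spots of a probe were averaged, and log2 of the signal minus the array's 75th percentile was taken. Of 41174 probes 118 were left out, and 26839 of the other 41056 had 1 gene in the RefSeq table; for each gene the brightest probe was used. Tests were limma 3.58.1 in R 4.3.3 (lmFit, eBayes, Benjamini-Hochberg over 13528 genes) on the 4 arrays with genotype as a block, and on all 8 for the interaction; the script was tested on simulated data. P-values measure only the spread between these arrays. "At least" folds set the bright mean against the lowest signal well above background. The labels number no replicates.

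Members and the 40 lists were chosen with earlier results of these data known. Genes were named by size in both genotypes (12 a direction), by list and by a fixed list; others, and the complexes within lists, were chosen after their values were seen. No promoter's gene was called on 4 arrays, so promoters of genes called on 8 are shown, and of the S phase genes with the largest differences. Alternatives were other normalisations, background correction, the deposited matrix, probe averaging, filters, 8 arrays, no block, an intensity trend and leaving out arrays. Some named items are not reported here.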

Additional observations from a re-analysis of the deposited data

Results flagged for a closer look

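The following results had opposite signs in the 2 genotypes, with 1 array for each genotype and time; none passed the limma interaction test on 8 arrays at an adjusted p of 0.05. Over the cholesterol synthesis list the median difference from 36 to 48 h was 1.65 higher in Mxcre+ (0.72) than in Mxcre- (-0.93). Il1rl2, a receptor of the interleukin 36 family, differed between the genotypes by 5.71 (4.15 in Mxcre+ against -1.56 in Mxcre-), and was well above background on 1 array of each time. Slc28a3, a nucleoside transporter, differed by 3.47, the olfactory receptors Olfr738 and Olfr1303 by 4.20 and 4.84, and Hoxb6 by 3.61. Each was well above background on 1 array of each time. For Il1rl2 and these genes the arrays were Mxcre- 36 h and Mxcre+ 48 h, through which alone they passed the filter. Their opposite signs are therefore no independent support, and their sizes rest on signals not well above background. Cidea, a lipid droplet protein, differed by -3.81, with 2.34 in Mxcre- and -1.48 in Mxcre+, and was well above background on all 4 arrays.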

How the results depend on the processing

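The 4-array fit called no gene under any alternative that kept those arrays. The fit on all 8 arrays called 20 higher and 0 lower, and leaving out 1 of the 4 arrays from it gave 0 to 4 higher calls. The counts of genes at least 2-fold higher and lower in both genotypes were 50 and 7 with normexp on the median signal, where the named differences had a median of 0.518 of their size and the cause was not tested; 49 of the 50 and all 7 were among those of the main setting, and 36 of the 50 were mitosis genes. Lower genes numbered 24 when signal well above background was required on all 4 arrays, and 75 with no filter; the higher count was 114 and 205 there. The planned normexp on the mean signal was not run and the median signal was chosen after seeing the data. Quantile normalisation, the deposited matrix and the mean over probes gave 158 to 164 higher and 38 to 42 lower. Over 42 lists and sets, the median of both genotypes' mean difference changed sign for 1 under quantile normalisation and in the deposited matrix (fatty acid and triglyceride synthesis), for 2 with the mean over probes (hepatocyte identity, endothelial markers) and for 4 under normexp (these fatty acid and endothelial lists, cholesterol synthesis and male-biased liver genes). Of 128 named genes, Slc28a3 changed sign under quantile normalisation and in the deposited matrix, and Olfr1303 and Ttc9 under normexp.
The labels number no replicates. The reported fit pairs arrays by genotype, and the fit without this block called 0 genes, with 807 at an unadjusted p under 0.05 in limma.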
